A study of Mus musculus with 6 samples.

Results

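SMAD proteins carry signals of the TGF-β superfamily from receptors at the cell surface to the nucleus, and the Smurf ubiquitin ligases limit that traffic. The 10 genes described here are the 8 *Smad* genes and the 2 *Smurf* genes, chosen by gene name from a table of 19270 genes, and all 10 were found in it once. They were measured by bulk RNA-seq in 6 libraries, 3 of control and 3 of *Arid1b* mutant mice aged 1 month. The methods state that proximal mesenchymal tissue of the incisor was dissected, 4 days after induction with tamoxifen. ARID1B is a subunit of the BAF chromatin remodeling complex, and the comparison asks which transcripts differ once it is lost from the GLI1+ lineage, which holds the mesenchymal stem cells (MSCs) of the incisor. The mutants are *Gli1-CreER;Arid1b fl/fl*, in which tamoxifen activates a Cre recombinase expressed from *Gli1*. The controls are labelled wild type, whereas the methods describe them as *Arid1b fl/fl* mice, and every animal received tamoxifen. The recombinase acts in the GLI1+ lineage of both mesenchyme and epithelium. Cells outside that lineage keep *Arid1b*, and RNA of the dissected tissue can also come from them. How many mice went into each library is not given in the sources used here.

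Ligands of the superfamily bind type II and type I receptor kinases, and the type I receptor phosphorylates a receptor SMAD. SMAD1, SMAD5 and SMAD9 (also called SMAD8) answer mainly to bone morphogenetic proteins (BMPs), and SMAD2 and SMAD3 to TGF-β and activin. Both kinds join the common SMAD4 and enter the nucleus, SMAD6 and SMAD7 inhibit the signal, and SMURF1 and SMURF2 mark SMADs and receptors for degradation. Both BMP and TGF-β signals act in the tooth, where they are known for their parts in odontoblast differentiation and in the exchange between mesenchyme and epithelium.

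For each gene the authors' table gives 1 normalized mean per group, scaled per library and not by gene length, with no value per mouse. No mean below therefore carries an SD, no test across mice was run, and whether a difference exceeds the spread between mice was not determined. The signal was taken as reads plus 1, so that the lowest value of a library stands for a gene with 0 reads, an inference from the values, and under it the libraries held 37123643 to 49594469 reads. The intervals given for ratios are 95% exact Clopper-Pearson intervals on the reads so estimated, and they cover counting error only. As a check of the labels, *Arid1b* (chromosome 17, 4994332 to 5347656) had a control mean of 97.6 and a mutant mean of 38.0, a ratio of 0.390.

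None of the 10 genes differed between the groups by more than 1.5-fold, the fold threshold of the study's methods. Of all 19270 genes, 13.2% lay past that fold in either direction, and 2.09% of the 4315 genes whose level lies within the range of the 10, from 43.8 to 237.8. *Smad9* and *Smad6* were lower in the mutants by more than 1.2-fold, and the other 8 genes lay within 1.1-fold of the control mean. The share of genes lower by more than 1.2-fold was 15.7% over the whole table and 5.61% at the level of the members, and the share within 1.1-fold was 49.9% and 74.3%. The 8 of 10 stands near the share at this level, and the 2 of 10 rests on single genes. By any amount, 9 of the 10 means were lower in the mutants, against 49.5% of all genes and 51.2% at the same level. Once the group means were rescaled to the same sum, 5 of the 10 were lower, against 36.3% of all genes. The median log2 ratio of mutant to control was -0.05 over the 10 genes and 0.0022 over all genes.

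**Figure D1:**
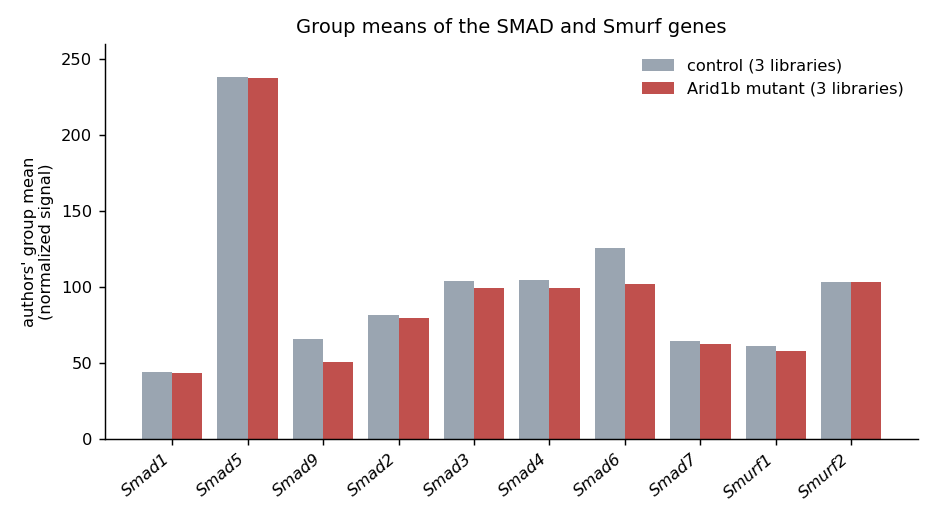
Group means of the 10 genes as deposited by the authors, in normalized signal, with a bar for the controls and a bar for the *Arid1b* mutants, each over 3 libraries and without an error bar because the table gives none. The bars of a pair are nearly level except for *Smad9* (66.0 and 50.5) and *Smad6* (125.7 and 102.0).

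Among the receptor SMADs of the BMP branch, the mean of *Smad9* (chromosome 3, 54755582 to 54801257, plus strand) was 66.0 for the controls and 50.5 for the mutants. This is a ratio of 0.766 (counting interval 0.741 to 0.792) or a log2 ratio of -0.38, the farthest from 0 of the 10 genes. It rested on about 2551 reads per control library and 2190 per mutant library, so counting error is small beside the difference. Among genes averaging 10 or more, 6.85% were at least as far from 0, and at the level of the members 4.82%. *Smad5* (chromosome 13, 56703010 to 56742377, plus strand) was the most abundant of the 10 in reads, with means of 238.0 and 237.6 and a ratio of 0.999 (0.982 to 1.01). *Smad1* (chromosome 8, 79338395 to 79399518, minus strand) had means of 43.9 and 43.7 and a ratio of 0.996 (0.959 to 1.03). Within this branch the 3 genes were unequal, as the mutant means of *Smad1* and *Smad5* were within 0.4% of the control, and that of *Smad9* differed from it by -23.4%.

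The receptor SMADs of the TGF-β and activin branch were close to the control level. *Smad2* (chromosome 18, 76241580 to 76310963, plus strand) had a control mean of 81.3 and a mutant mean of 79.7, with a ratio of 0.981 (0.954 to 1.01). *Smad3* (chromosome 9, 63646767 to 63757994, minus strand) had means of 104.0 and 99.5, with a ratio of 0.957 (0.934 to 0.981). The common SMAD, *Smad4* (chromosome 18, 73639009 to 73703780, minus strand), had means of 104.5 and 99.2, with a ratio of 0.950 (0.927 to 0.974). The intervals of *Smad3* and *Smad4* do not reach 1, but they hold no spread between mice, and 54.5% and 48.9% of the genes at the level of the members were at least as far from 0.

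The inhibitory SMADs had unequal ratios. *Smad6* (chromosome 9, 63953076 to 64022059, minus strand), which mainly restrains BMP receptors and is itself a target gene of BMP signaling, averaged 125.7 for the controls and 102.0 for the mutants. Its ratio was 0.812 (0.793 to 0.831), a log2 ratio of -0.30, and 7.56% of the genes at the level of the members were at least as far from 0. With group means rescaled to the same sum its log2 ratio was -0.24, which is inside 1.2-fold. *Smad7* (chromosome 18, 75367529 to 75395935, plus strand), which restrains both branches, had means of 64.4 and 62.5 with a ratio of 0.971 (0.941 to 1.00).

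The Smurf ligases are HECT-type enzymes that bind SMADs through WW domains. *Smurf1* (chromosome 5, 144876495 to 144965847, minus strand) had means of 61.0 and 57.8 and a ratio of 0.948 (0.918 to 0.980). *Smurf2* (chromosome 11, 106820066 to 106920715, minus strand) had means of 103.2 and 103.6 and a ratio of 1.00 (0.979 to 1.03), and was the 1 member with a higher mean in the mutants.

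**Figure D2:**
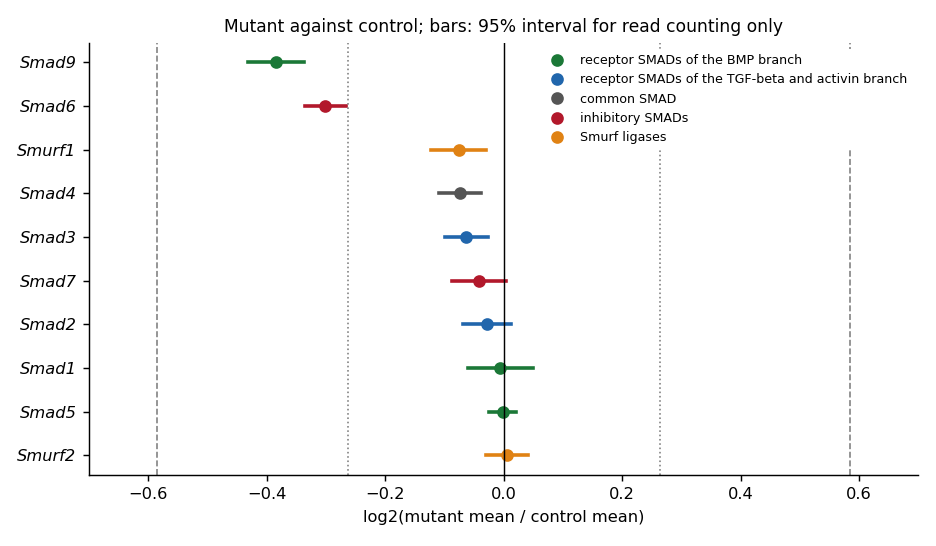
Log2 ratio of the mutant to the control mean for each gene, coloured by role, with bars for the 95% interval of read counting only, dotted lines at 1.2-fold and dashed lines at 1.5-fold. *Smad9* (-0.38) and *Smad6* (-0.30) stand left of the dotted line, and the other 8 lie between -0.08 and 0.0048.

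**Figure D3:**
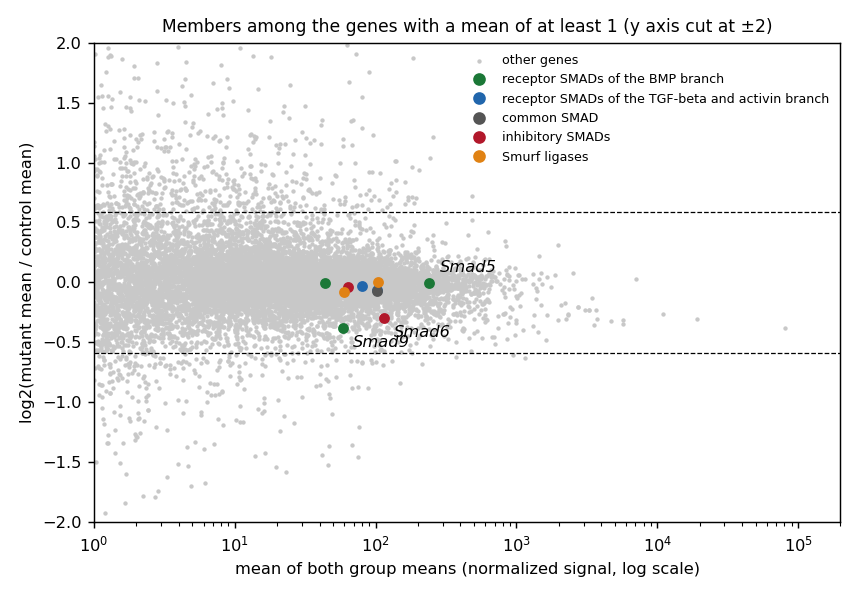
Log2 ratio of mutant to control against the mean of both groups (log scale, normalized signal) for genes with a mean of at least 1, in grey, with the 10 genes coloured by role and dashed lines at 1.5-fold. The 10 genes sit inside the cloud of genes of similar level, *Smad9* and *Smad6* toward its lower edge.

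Deposited means are not scaled by gene length, so levels of different genes were compared per kb of exonic length (all exons of a gene in GENCODE vM21, merged). On this scale the control level was highest for *Smad6* at 39.2, followed by *Smad5* at 32.1 and *Smad4* at 28.1. *Smad3*, *Smurf2*, *Smad7* and *Smad9* followed at 18.8, 16.8, 14.2 and 12.3, and the lowest levels were those of *Smurf1* at 9.63, *Smad2* at 9.26 and *Smad1* at 7.01. The highest level was 5.59 times the lowest. In the mutants *Smad6* stood at 31.8 and *Smad5* at 32.0, so that the order of these neighbours turned, and *Smad9*, at 9.42, stayed above *Smurf1* at 9.13. *Smad2*, a receptor SMAD with 8781 exonic bases, had a lower level per kb than *Smad3*, which shares its branch and has 5542. With the longest transcript as the length, 7 of the 10 genes kept their rank in the controls and the 3 lowest changed places. Neighbours in this order cannot be told apart by a spread between mice, which these means do not hold.

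**Figure D4:**
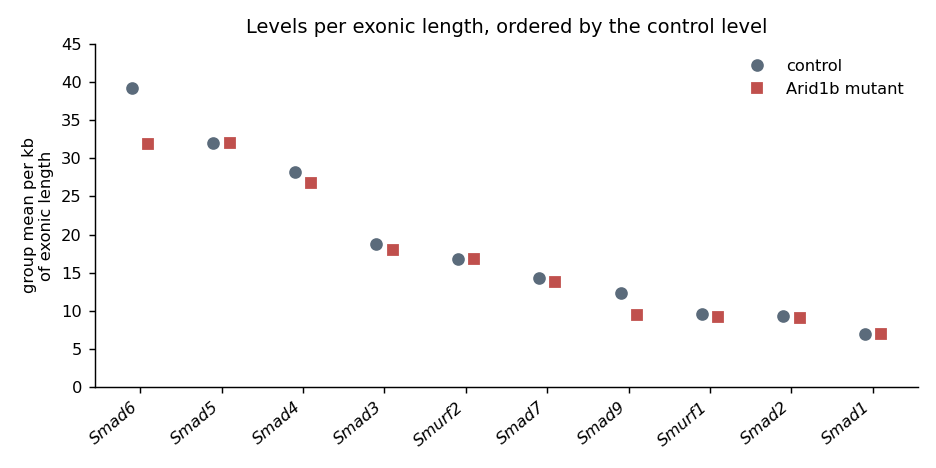
Group mean per kb of merged exonic length, in normalized signal per kb, for controls (circles) and mutants (squares), ordered by the control level. *Smad6*, *Smad5* and *Smad4* lie highest, and the clearest gaps between circle and square are those of *Smad6* (39.2 and 31.8) and *Smad9* (12.3 and 9.42).

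Because *Smad9* and *Smad6* were the genes farthest from the control level, the 250 bases before their annotated starts are shown, with *Smurf2* for a member at the control level (RefSeq sequences on GRCm38.p6, 5′ to 3′ on the strand of the gene). The windows are chr3:54755332-54755581 (plus strand), chr9:64022060-64022309 (minus strand) and chr11:106920716-106920965 (minus strand). Capitals mark GGCGCC, a GC-rich box bound by BMP-activated SMADs, and CAGAC, a form of the classical SMAD box, or its reverse complement GTCTG.
Smad9: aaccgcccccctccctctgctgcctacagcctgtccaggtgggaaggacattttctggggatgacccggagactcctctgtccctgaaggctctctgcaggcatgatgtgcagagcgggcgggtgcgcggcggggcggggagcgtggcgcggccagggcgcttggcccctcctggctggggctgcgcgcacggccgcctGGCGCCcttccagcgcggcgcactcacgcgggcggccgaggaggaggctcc
Smad6: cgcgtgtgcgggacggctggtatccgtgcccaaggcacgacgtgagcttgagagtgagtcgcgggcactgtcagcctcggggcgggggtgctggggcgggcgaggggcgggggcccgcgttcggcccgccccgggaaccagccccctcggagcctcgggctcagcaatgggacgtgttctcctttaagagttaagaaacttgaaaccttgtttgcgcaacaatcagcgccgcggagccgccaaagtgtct
Smurf2: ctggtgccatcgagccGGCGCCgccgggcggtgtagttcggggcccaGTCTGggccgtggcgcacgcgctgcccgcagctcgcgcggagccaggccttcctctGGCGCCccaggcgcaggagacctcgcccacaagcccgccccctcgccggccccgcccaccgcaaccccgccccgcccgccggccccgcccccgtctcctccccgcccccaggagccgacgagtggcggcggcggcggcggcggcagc

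Both motifs were searched on both strands. *Smad9* held 1 GGCGCC, 51 bases before the start, and *Smurf2* held 2, at 147 and 234 bases, and 1 GTCTG at 203 bases. The window of *Smad6* held neither motif. Of other members within 1.1-fold of the control mean, *Smad1* and *Smad3* held neither motif, and *Smad5* and *Smurf1* held matches. Of 32851 windows of the same length, 9.59% held GGCGCC and 42.2% held CAGAC, and among the 9178 windows with at least 60% G and C the shares were 26.1% and 38.6%. The windows of *Smad9*, *Smad6* and *Smurf2* had 73.2%, 66.8% and 82.0% G and C, against a median of 52.4% over all windows. That of *Smurf2* was the highest among the windows of members. A match of letters describes the sequence and is no evidence of binding. In all, 7 of the 10 genes had a window in the table used.

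The rest of the pathway was described by fixed lists, and the genes named as highest or lowest in log2 ratio are those among list members averaging 10 or more over both groups. Of the 7 other ligases of the NEDD4 family, to which the Smurfs belong, 4 had a higher and 3 a lower mean in the mutants, and 0 lay past 1.5-fold (1, *Nedd4l*, with group means rescaled to the same sum). The median log2 ratio of this list was 0.01. *Nedd4l*, a ligase that also acts on SMAD2 and SMAD3, was highest at 15.5 in the controls and 23.2 in the mutants (log2 ratio 0.58), and *Hecw2* lowest at 46.0 and 43.2 (-0.09). Of 9 other genes of SMAD turnover (ubiquitin ligases, deubiquitinases, a phosphatase and the feedback inhibitor *Pmepa1*), 5 were higher and 4 lower with 0 past 1.5-fold and a median of 0.03. *Pmepa1* was highest at 33.9 and 41.4 (0.29), and *Usp9x*, which removes ubiquitin from SMAD4, lowest at 472.0 and 447.8 (-0.08). Within 1.1-fold of the controls were 5 of the 7 ligases and 8 of the 9 other genes. The share was 49.9% over all genes and 69% over genes averaging 10 or more.

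Among 11 measured nuclear partners of the SMADs (12 were listed), 4 were higher and 7 lower, with 0 past 1.5-fold and a median of -0.06, which turned to 0.0055 with group means rescaled to the same sum. *Tgif1*, a corepressor, was highest at 30.5 and 34.0 (log2 ratio 0.16), and *Zfp423*, a BMP-responsive zinc finger partner, lowest at 12.1 and 9.73 (-0.31). Of 9 anchors and receptor adaptors, 8 were higher and 1 lower, with a median of 0.05. All 9 lay within 1.1-fold, against 69% of genes averaging 10 or more. Their range ran from *Fkbp1a* (161.7 and 157.8, -0.04) to *Lemd3* (46.9 and 49.6, 0.08), an inner nuclear membrane protein that binds SMADs.

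The receptors act upstream of the SMADs. Of 7 type I receptors, 4 were higher and 3 lower, with a median log2 ratio of 0.09, and *Acvr1b*, an activin receptor, was highest among receptors averaging 10 or more (31.0 and 41.0, 0.40) and *Acvrl1* lowest (41.2 and 39.9, -0.05). The 1 type I receptor past 1.5-fold was *Bmpr1b*, named after its values were seen, at means of only 0.157 and 0.267. Of 5 type II receptors, 3 were higher and 2 lower, with a median of 0.12, and those averaging 10 or more ran from *Bmpr2* (426.7 and 416.8, -0.03) to *Acvr2a* (31.9 and 37.2, 0.22).

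Target genes were listed apart from the SMADs. Of 9 BMP-SMAD targets, 7 were lower and 2 higher, with a median log2 ratio of -0.15 and 0 past 1.5-fold. Of all genes, 49.5% were lower. *Id1*, an inhibitor of bHLH factors, was lowest (119.1 and 94.3, -0.34) and *Id4* highest (173.7 and 186.0, 0.10). The log2 ratios of *Smad6* (-0.30) and *Smad9* (-0.38) are of the same size as the lowest of this list, and a link between them was not tested. Of 8 targets of SMAD2 and SMAD3, 5 were higher and 3 lower, with a median of 0.10. *Cdkn2b* was past 1.5-fold at low means of 1.22 and 2.07, *Pmepa1* was the highest of those averaging 10 or more, and *Tgfbi*, a secreted matrix protein, was the lowest (976.4 and 774.1, -0.33). *Pmepa1*, *Skil* and *Bambi* are each in a pair of these lists, and *Msx1*, a BMP-SMAD target, is also among the dental mesenchyme markers below.

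**Figure D5:**
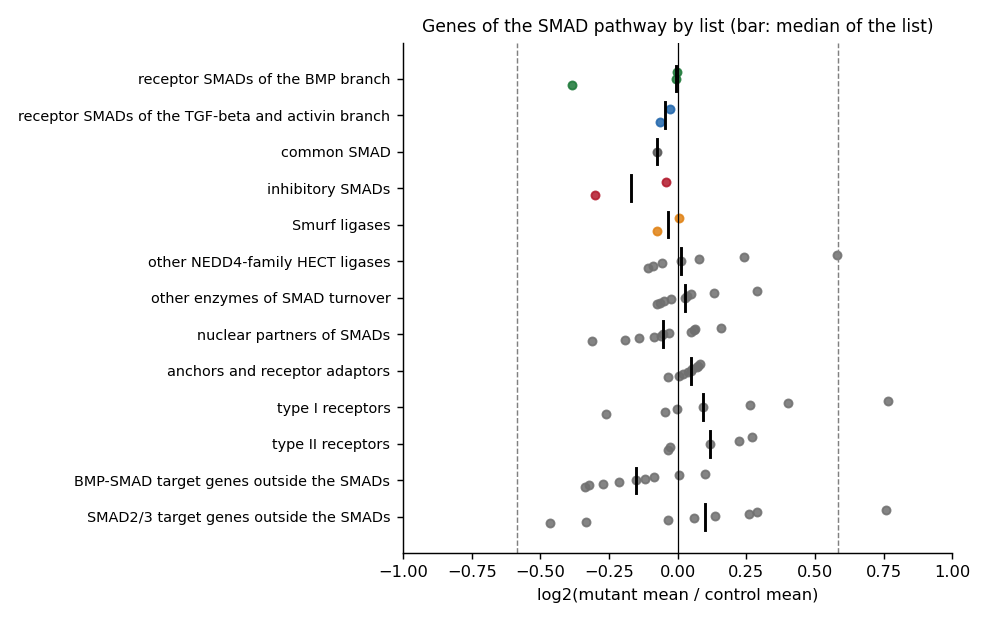
Log2 ratio of mutant to control for every measured gene of the SMAD pathway lists, a point per gene, with a black bar at the median of each list and dashed lines at 1.5-fold. The BMP-SMAD target list has its median at -0.15 and both receptor lists have theirs above 0, at 0.09 and 0.12.

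The 10 genes lie on 7 chromosomes, and 2 of these hold more than 1 of them. *Smad3* and *Smad6* are neighbours on chromosome 9 on the same strand, 195.1 kb apart with 0 other protein-coding genes between them, and had ratios of 0.957 and 0.812. *Smad2*, *Smad7* and *Smad4* lie on chromosome 18, where *Smad2* and *Smad7* are 845.6 kb apart. No gene on the opposite strand shares exonic bases with a member in GENCODE vM21. On the same strand the miRNA gene *Gm27322* shares 58 bases (0.941%) with *Smurf2*, and *Gm27301* shares 100 bases (1.35%) with *Smad5*.

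Other features of the libraries moved with the groups. Although the methods describe the dissected tissue as mesenchymal, epithelial markers were present in both groups. All 10 listed markers of dental epithelium were past 1.5-fold higher in the mutants, and their summed mean went from 1585 in the controls to 10285, with none at the lowest value. The median ratio of this list was 2.27. Most of the sum came from 3 enamel matrix genes, named after their values were seen, *Ambn*, *Amelx* and *Enam*, with ratios of 5.44, 10.9 and 14.6, and the other 7 markers had ratios from 1.68 to 2.35. Of 10 markers of dental mesenchyme, 7 were lower and 3 higher, with a median ratio of 0.848 and a control sum of 28075 against a mutant sum of 22810. *Gli1* was among them at 106.4 and 46.1. The CreER cassette of the mutants lies in that gene, and the study also reports fewer GLI1+ cells in mutant incisors. Whether either bears on the *Gli1* means was not tested. The ratios of the mesenchymal markers ran from 0.434 (*Gli1*) to 1.18 (*Runx2*). All 4 odontoblast markers were lower, with a median ratio of 0.772 and a summed mean of 6364 and 5053. The ratios of *Smad9* (0.766) and *Smad6* (0.812) lie near the medians of both lists, and whether they follow either was not tested. Of 8 endothelial markers, 5 were higher and 3 lower, with summed means of 452.6 and 471.1, and *Smad6* is known to be abundant in endothelium. In bulk RNA of a tissue, fewer cells of a type and less RNA per cell cannot be told apart.

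Markers of other cell types were mixed in direction, except those of erythroid cells and neutrophils. Of 6 pericyte and smooth muscle markers, 3 were higher and 3 lower with a median ratio of 1.00, and their summed means of 683.6 and 630.3 differed mainly through *Rgs5* (411.0 and 340.1). Of 7 macrophage and osteoclast markers, 5 were higher and 2 lower with a median ratio of 1.17 and summed means of 365.5 and 396.4. Of 5 Schwann cell markers, 2 were higher and 3 lower with a median ratio of 0.937, whereas their summed means of 31.3 and 34.3 went the other way, mainly through *Mbp* (11.3 and 15.2). All 6 erythroid and neutrophil markers were lower, with a median ratio of 0.535 and summed means of 57.6 and 28.4. Sex is not among the labels. The 4 Y-linked transcripts summed to 0.130 in the controls, 2 of them at the lowest value, and to 147.7 in the mutants, and *Xist* had means of 3368 and 813.8. The mutant means thus held both *Xist*, at 0.242 of the control level, and Y-linked transcripts, so the mutant libraries together were of mixed sex, whereas the controls held almost no Y-linked transcript. Sex was unequal between the groups, and with 1 mean per group its part cannot be told apart from that of genotype. The part of cell composition in the values of *Smad9* and *Smad6* was not tested.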

How the data were processed

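Proximal mesenchymal tissue of the incisor was profiled by bulk RNA-seq in 3 libraries of control and 3 of *Arid1b* mutant mice. Reads were trimmed, aligned to mm10 and compared in Partek Flow by the authors, and the submitters' processing notes also name TopHat2 2.0.8. The annotation, the counting and its use of strand are not given in the sources used here. The deposited table holds a normalized signal as 1 group mean per gene, and 4 further columns of the authors' own comparison (p-value, FDR, ratio and fold change), which were not used, nor was a second table with the same columns. A summary of each library gave its lowest value, mean and upper quartile (44.57 to 44.58). The lowest group mean equals the mean of the library minima, so the signal was taken as reads plus 1, scaled per library.

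Ratios and log2 ratios were computed from the group means with a pseudocount of 0. No test was run, since the values used are 1 mean per group. Folds over 1.5 and 1.2 were set as thresholds. A count within 1.1-fold, the other scalings of the 1.2-fold count and the shares of genes at the level of the members were added after the values were seen. Members and gene lists were chosen with earlier results of these data known. Named genes were all 10 members, *Arid1b*, genes of the pathway lists past 1.5-fold with a higher mean of at least 1, and the highest and the lowest gene of each pathway list with a mean of at least 10. Cell type markers were summarised by list, and those named were chosen after their values were seen, as were *Bmpr1b*, *Skil* and *Bambi*. Since 2 group means give no pattern over samples, no gene was named for likeness. Coordinates and lengths are from GENCODE vM21 (GRCm38, also named mm10), in which 18840 of 19270 gene names matched 1 gene. The tools were matplotlib 3.10.9, scipy 1.17.1, pandas 2.3.3 and numpy 2.4.6 on Python 3.11.15. Alternatives were other scalings, a pseudocount of 1, a mean of at least 10, other folds and transcript length.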

Additional observations from a re-analysis of the deposited data

How the results depend on the processing

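No paired analysis was possible because each gene has 1 mean per group, and leaving out a replicate was not run for the same reason, so that no value above has an error between mice. Centring on the median of genes with a mean of at least 10, a pseudocount of 1 and a filter at a mean of 10 kept 0 members past 1.5-fold, 9 lower, 2 past 1.2-fold and 8 within 1.1-fold. These settings could hardly change the counts. Every member averaged 43.8 or more over both groups, so the filter removed none and the pseudocount was small, and centring moved log2 ratios by -0.00066. With group means rescaled to the same sum, which moved the median log2 ratio of all genes by 0.06, 5 members were lower (*Smad1*, *Smad5*, *Smad2* and *Smad7* turned higher), 1 was past 1.2-fold (*Smad9*), and the median log2 ratio of the members was 0.0080, the reverse of -0.05. Under that scaling 36.3% of all genes were lower, and *Smad9*, *Smad6*, *Smurf1*, *Smad4* and *Smad3* remained lower under each scaling run. With rescaled means the log2 ratios of *Smurf1*, *Smad4* and *Smad3* were only -0.016, -0.013 and -0.0024. Those of *Smad9* and *Smad6* were -0.32 and -0.24. A threshold of 1.2-fold in place of 1.5-fold called 2 members and one of 2-fold called 0. The median was -0.04 without *Smad6*, and the highest level per kb was 4.21 times the lowest with the longest transcript. Reads per member (about 1697 or more per library) did not limit these values, whereas the missing spread between mice did.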
